A study of Mus musculus with 29 samples.

Results

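The nuclear factor I (NFI) family comprises the 4 genes Nfia, Nfib, Nfic and Nfix, taken by exact symbol from the 24062 genes of the RNA-seq table, and all 4 were among the 14024 genes that passed the filter on low counts. They were followed across sorted cell populations of the adult mouse retina. Bipolar cells, the interneurons that carry the photoreceptor signal to the inner retina, were collected as all bipolar cells (pan-BC), as the ON class that responds to light onset (ON-BC) and as the OFF class that responds to light offset (OFF-BC), and were set against rods and against Nrl-/- photoreceptors, which served as blue cones. RNA-seq comprised 15 libraries, with 3 for each of the 5 populations. ATAC-seq, which reads open chromatin, comprised 14 libraries, of which 12 were in the count table (2 for each of the 5 populations above and 2 for green cones) and 2, from double-sorted green cones, had peak calls only.

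All bipolar cells came from Otx2-GFP+/- mice, in which GFP is inserted at 1 copy of the endogenous Otx2 gene, so that bipolar libraries carry an Otx2 allele that the photoreceptor libraries lack. Cells of the ON-BC and OFF-BC RNA-seq libraries, and by the labels of all bipolar ATAC-seq libraries, also carried Grm6-YFP+/+, in which the Grm6 promoter drives YFP and so marks ON bipolar cells, whereas pan-BC RNA-seq cells did not. Rods came from Nrl-eGFP mice, blue cones from Nrl-eGFP;NrlKO mice, and green cones from Opn1mw-GFP mice. OFF-BC cells were sorted in 2 rounds and the other populations in the count tables in 1. Bipolar RNA came from mice at postnatal days 42 to 48, bipolar ATAC-seq material from days 42 to 46, whereas photoreceptor libraries were taken from previous work of the authors and came from mice at day 56. Cell class, study, age and the Otx2 allele therefore coincide and cannot be told apart in any contrast of bipolar cells with photoreceptors. The ON and OFF sorts probably both lack the bipolar type BC5D, and the blue cones are photoreceptors that lost the rod factor Nrl, not sorted wild-type cones. The authors estimate that rod bipolar cells made up most of the ON population, which groups them with ON cone bipolar types. The ON-BC to OFF-BC contrast does not separate these types.

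NFI proteins are transcription factors with a shared DNA-binding domain at the amino terminus and divergent carboxy-terminal regions. They bind as dimers to the palindrome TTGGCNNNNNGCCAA and more weakly to a single arm, TTGGC. In the developing nervous system Nfia and Nfib are known for the onset of gliogenesis, Nfix for the timing of neural stem cell differentiation, and Nfic for tooth root formation outside the nervous system. In the retina, NFI factors mark late progenitors and are known for the generation of bipolar cells and Müller glia.

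Libraries held between 12329548 and 26266746 counted RNA reads (median 15569580) and between 4176776 and 12345845 ATAC reads in regions (median 6648830), and replicates of a population correlated at Pearson r of 0.972 to 0.985 in RNA and 0.866 to 0.959 in ATAC-seq. Bipolar markers summed to 226255 to 308887 normalized counts in bipolar libraries, to 1680.4 to 2474 in rods and to 26986 to 31537 in blue cones. Rod markers summed to 1822800 to 2504630 in rods and 172376 to 261848 in blue cones. Cone markers summed to 1501640 to 1726190 in blue cones and 10852 to 10968 in rods. Each population thus carried the markers of its label, and blue cones also carried rod markers. OFF-BC replicate 3 stood apart. It held 55813 normalized counts of the cone opsin Opn1sw against 4477 and 4314 in the other OFF-BC libraries, and 1329 of the ON bipolar factor Isl1 against 343 and 162. The ON-BC to OFF-BC differences of the members and of the listed genes, the OFF-BC make-up of the family and the genes most like each member are therefore given with and without it, and other values that include OFF-BC RNA rest on all 3 libraries.

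In the mouse genome (GRCm38, RefSeq models) the genes differ widely in size. Nfia spans chr4:97578066-98118876 on the plus strand and has 2 curated start sites. Nfib spans chr4:82290173-82506751, Nfic chr10:81396191-81431919 and Nfix chr8:84704712-84801238, all on the minus strand. The 250 bases upstream of the first Nfia start site (chr4:97581693-97581942, RefSeq, GRCm38.p6, plus strand) are shown because the region over this start opened in bipolar cells, as described with the ATAC-seq data.
Nfia, upstream of start: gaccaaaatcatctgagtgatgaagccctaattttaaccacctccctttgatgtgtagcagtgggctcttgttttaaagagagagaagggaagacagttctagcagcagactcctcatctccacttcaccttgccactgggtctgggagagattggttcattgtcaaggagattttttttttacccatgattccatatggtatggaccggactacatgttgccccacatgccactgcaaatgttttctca
This stretch held 4 E-box matches (CANNTG, the motif of basic helix-loop-helix factors) and no match to the NFI palindrome, the NFI arm TTGGC, the core TAATCC of K50 homeodomain factors such as CRX and OTX2, or the core TAATTA of Q50 homeodomain factors, on either strand. Over all 32851 RefSeq promoter stretches of this length, 66.22% held an E-box, 41.51% an NFI arm, 6.25% a K50 core, 4.84% a Q50 core and 0.04% the palindrome.

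Nfia, Nfib and Nfix RNA was high in all bipolar libraries and low in all photoreceptor libraries, and Nfic RNA was high in both classes. Levels are read counts that the authors divided by 1 size factor per library (normalized counts). Differences are log2 fold changes on log2(normalized count + 1) with their standard errors (SE), and a gene was called where limma's test against a log2 fold change of 1 gave a Benjamini-Hochberg adjusted p below 0.05 over all 14024 genes tested. In RNA from many sorted cells, fewer cells of a type and less RNA per cell cannot be told apart.

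**Figure D1:**
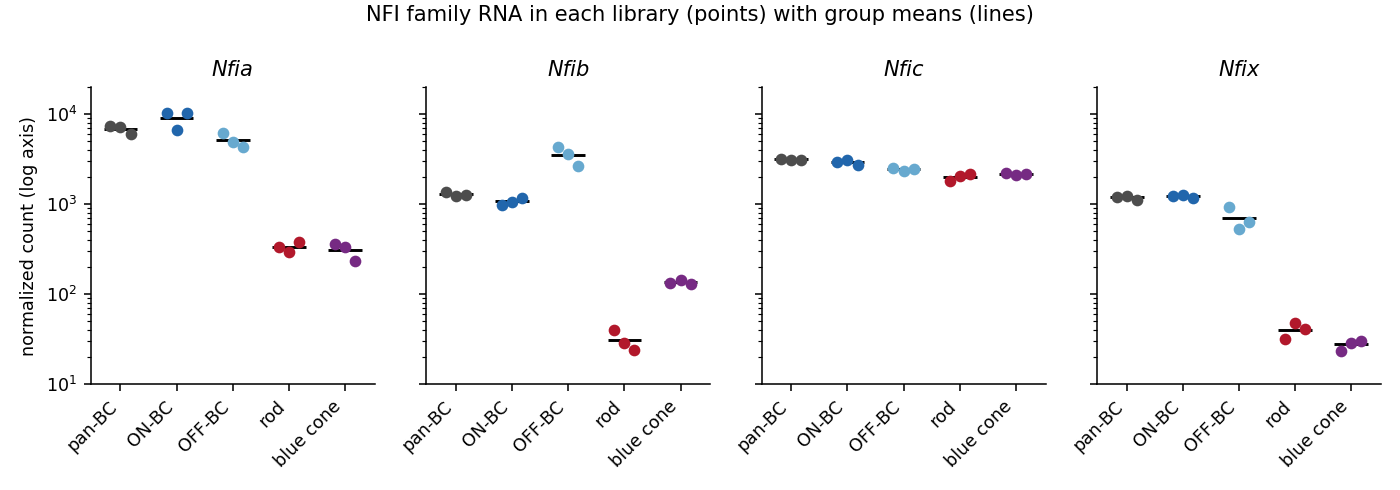
Normalized RNA-seq counts of Nfia, Nfib, Nfic and Nfix on a log10 axis for the 3 libraries of each population, with points for libraries and a horizontal line at the group mean. Nfia, Nfib and Nfix points of the 9 bipolar libraries lie above all 6 photoreceptor points, whereas Nfic ranges only from 1828 to 3214.

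Nfia, the most abundant member in bipolar cells, measured 7487, 7166 and 6071 normalized counts in the pan-BC libraries. The ON-BC libraries gave 10311, 6769 and 10227, and the OFF-BC libraries 6152, 4949.9 and 4352. Rods held 331, 291 and 385, and blue cones held 363, 332 and 231. No bipolar library overlapped a photoreceptor library, and rods and blue cones overlapped each other. The pan-BC mean of 6908 ± 742 (SD, n = 3) was 20.6-fold the rod level (log2 fold change 4.36, SE 0.19, adjusted p = 4.84e-11, limma) and 22.6-fold the blue cone level (4.50, SE 0.19, adjusted p = 9.03e-11). The bipolar classes were ordered ON-BC (9102.5 ± 2022), pan-BC and OFF-BC (5151 ± 916), and both neighbouring pairs overlapped. ON-BC exceeded OFF-BC by a log2 fold change of 0.81 (SE 0.19), or 0.70 without OFF-BC replicate 3, and neither passed the test against 1.

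Nfib measured 1358, 1244 and 1277 normalized counts in pan-BC, 985, 1055 and 1178 in ON-BC, and 4290, 3639 and 2672 in OFF-BC. Blue cones held 132, 145 and 130, and rods 39.8, 28.7 and 23.8, which correspond to 22 to 41 reads per library. Nfib was thus the member with OFF-BC at the top, and no population overlapped its neighbour in the order OFF-BC, pan-BC, ON-BC, blue cone and rod. Pan-BC exceeded rods 41.6-fold (log2 fold change 5.38, SE 0.18, adjusted p = 9.02e-13, limma) and blue cones 9.46-fold (3.24, SE 0.18, adjusted p = 9.63e-09). Blue cones in turn exceeded rods (rod against blue cone −2.14, SE 0.18, adjusted p = 5.94e-05), and Nfib was the only member called between the photoreceptor populations. Pan-BC and ON-BC, neighbours in the order, differed by a log2 fold change of 0.27 (SE 0.18) that did not pass the test against 0 either (adjusted p = 0.509).

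Between the bipolar classes Nfib RNA was lower in ON-BC (1073 ± 97.4, SD, n = 3) than in OFF-BC (3533 ± 814), with a log2 fold change of −1.70 (SE 0.18, adjusted p = 0.0123, limma against 1). This call depended on single libraries. It was lost without ON-BC replicate 1 (−1.64, adjusted p = 0.062), without OFF-BC replicate 1 (−1.54, adjusted p = 0.0917) and without OFF-BC replicate 2 (−1.66, adjusted p = 0.0544), and held without OFF-BC replicate 3, the library with the high cone markers (−1.88, adjusted p = 0.00213). With the replicate number as a block on the ON-BC and OFF-BC libraries alone the call was also lost (−1.70, adjusted p = 0.0542, limma), and with the block over all libraries it held (adjusted p = 0.0107). The mice behind same-numbered ON-BC and OFF-BC libraries were of equal age. The direction was the same in each of these fits, and every OFF-BC library stood above every ON-BC library.

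Nfix measured 1203, 1241 and 1128 normalized counts in pan-BC, 1244, 1263 and 1186 in ON-BC, and 939.9, 524 and 634 in OFF-BC. Rods held 32.0, 47.1 and 41.1, and blue cones 23.3, 28.8 and 30.3. The ON-BC and pan-BC libraries overlapped, the OFF-BC libraries lay below both, and the photoreceptor libraries lay far lower, with rods just above blue cones. Pan-BC (1191 ± 57.3, SD, n = 3) exceeded rods 29.3-fold (log2 fold change 4.87, SE 0.20, adjusted p = 1.32e-11, limma) and blue cones 42.0-fold (5.39, SE 0.20, adjusted p = 1.16e-11). ON-BC exceeded OFF-BC by 0.86 (SE 0.20), or 0.81 without OFF-BC replicate 3, and neither passed the test against 1.

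Nfic was the member that differed least. The pan-BC libraries held 3214, 3128 and 3091 normalized counts, the ON-BC libraries 2977, 3079 and 2734, and the OFF-BC libraries 2550.5, 2333 and 2449.7. Rods gave 1828, 2044 and 2174, and blue cones gave 2231, 2125 and 2186. Its group means fell from pan-BC through ON-BC, OFF-BC and blue cone to rod, and only the last pair overlapped. Pan-BC exceeded rods by a log2 fold change of 0.65 (SE 0.09) and blue cones by 0.53 (SE 0.09), and neither was called. ON-BC exceeded OFF-BC by 0.26 (SE 0.09), and by 0.26 without OFF-BC replicate 3.

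Read against all genes, 3 of 4 members were called higher in pan-BC when set against rods, where 27.8% of tested genes were called in that direction and 15.8% in the other. The same 3, Nfia, Nfib and Nfix, were also called over blue cones, against a background of 22.7% (13.7% higher in blue cones). Both contrasts use the same pan-BC libraries. In ON-BC against OFF-BC, 1 of 4 was called, higher in OFF-BC, where 3.60% of genes were called in that direction and 2.95% in the other. In rods against blue cones, 1 of 4 was called, higher in blue cones, against 11.3% of genes (4.63% higher in rods). Tested against a log2 fold change of 0, all 4 members passed in pan-BC against rods, pan-BC against blue cones and ON-BC against OFF-BC, and Nfib and Nfix passed in rods against blue cones. Genes passing that test made up 79.5%, 76.3%, 27.0% and 57.5% of all genes in these contrasts, respectively. Nfic was among those passing in ON-BC against OFF-BC at an adjusted p of 0.0393, and 0.00389, 1.72e-06 and 0.00336 were obtained for Nfia, Nfib and Nfix. Without OFF-BC replicate 3, a setting added after the data were seen, Nfic no longer passed (adjusted p = 0.0748, limma), and Nfia, Nfib and Nfix did (0.0220, 9.79e-07 and 0.0154).

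The make-up of the family differed between classes when levels were divided by exon length (normalized counts per kilobase of merged RefSeq exons). Summed over the 4 genes, the pan-BC family level was 1542 ± 96.3 per kilobase, the ON-BC level 1718 ± 187 and the OFF-BC level 1414 ± 218 (SD, n = 3 each). Rods reached 365 ± 30.2 and blue cones 397 ± 11.0. Nfic accounted for 87.8% of the family's per-kilobase level in rods and 87.2% in blue cones, but for 32.5% of the pan-BC, 27.4% of the ON-BC and 27.8% of the OFF-BC level. Nfia was the largest share in each bipolar population, with 46.4% of the pan-BC, 54.5% of the ON-BC and 37.7% of the OFF-BC level, and made up 9.55% of the rod and 8.04% of the blue cone level. The Nfib share was 26.9% of the OFF-BC level against 6.81% of the ON-BC and 9.09% of the pan-BC level, and it was 3.70% for blue cones and 0.930% for rods. Without OFF-BC replicate 3 the OFF-BC family level averaged 1507, with an Nfia share of 38.2% and an Nfib share of 28.5%. Nfix ranged from 12.1% in pan-BC to 1.08% in blue cones. Among the tested genes ranked by normalized count, Nfia stood at percentile 97.66 in pan-BC and 52.68 in rods, whereas Nfic stood at 93.26 and 87.43.

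**Figure D2:**
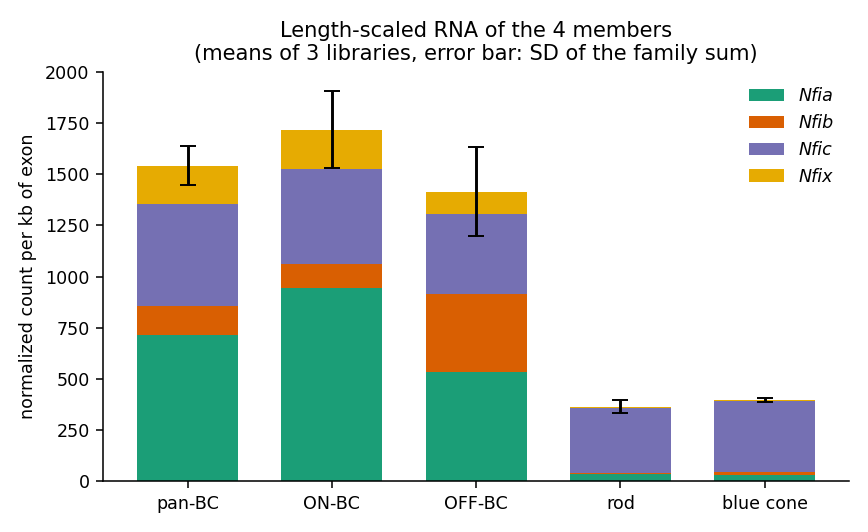
RNA level of the NFI genes in normalized counts per kilobase of exon (linear axis from 0), stacked by gene, as the mean of 3 libraries for each population, with an error bar of 1 SD of the family's sum. The bipolar bars reach 1414 to 1718, of which Nfia fills 37.7% to 54.5%, and the rod and blue cone bars reach 365 and 397, of which Nfic fills 87.8% and 87.2%.

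One overlapping transcript bears on the Nfia values. The long non-coding RNA E130114P18Rik lies on the opposite strand and overlaps the 5′ end of Nfia, and whether the counting used strand is not given in the sources used here, so reads of the pair may not be separated. The pan-BC libraries held 392, 449 and 295 normalized counts of it, the ON-BC libraries 325, 243 and 385, and the OFF-BC libraries 879.6, 606 and 611. Rods held 8.73, 10.2 and 20.5, and blue cones held 12.03, 7.59 and 6.66. Its OFF-BC libraries were the highest, the reverse of the Nfia order, and its highest library stood below the lowest bipolar Nfia library. Mir1191b, within Nfic, was at 0 in all libraries, and Lyl1, which overlaps the 3′ end of Nfix by 5 bases, did not exceed 2.16.

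The genes with the most similar pattern over the 15 libraries were taken as the 5 highest Pearson correlations of log2(normalized count + 1) with each member. This is a description without a test, since the libraries share populations and a bipolar to photoreceptor difference alone gives a high r. Nfia was most like Plcd1 (r = 0.993), Timm23, Leprel1, Vipr1 and Tcf4. Nfix was most like Tcf4 (r = 0.993), Gabrr2, Plcd1, Cmip and Bhlhe23, and shared Tcf4 and Plcd1 with Nfia. Tcf4, a basic helix-loop-helix factor, averaged 8739 normalized counts in pan-BC, 5529 in OFF-BC and 907 in rods. Nfib was most like Sulf1 (r = 0.994), Tespa1, Adamtsl2, Fam189a1 and 8430419L09Rik. All of these held their highest mean in OFF-BC, as Nfib did, and Adamtsl2 averaged 3631 normalized counts in OFF-BC against 631 in ON-BC, 14.7 in blue cones and 2.35 in rods. Nfic was most like Gm15800 (r = 0.971), Tgfb2, Rap1gap, Upk3bl and Pam. Within the family, Nfia and Nfix were closest (r = 0.989, with Nfix 17th among 14023 genes for Nfia), Nfib and Nfic least alike (r = 0.706), and the remaining pairs lay between 0.862 and 0.889. Over the 14 libraries without OFF-BC replicate 3, the 5 genes most like each member shared 3 with those named here for Nfia and for Nfix, and 4 for Nfib and for Nfic, with Thrsp (r = 0.995) first for Nfia and Map7d1 (r = 0.996) first for Nfix.

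Open chromatin at the NFI genes differed by member. Of the 110715 regions of 200 bases in the ATAC-seq table, 54 had a member as the nearest start site, namely 26 for Nfia, 13 for Nfib, 8 for Nfic and 7 for Nfix, and all 54 passed the filter that left 108448 regions. Most were intronic (19, 12, 5 and 5), and 6 Nfia, 3 Nfic and 1 Nfix regions lay outside the gene. Because long non-coding start sites lie inside these introns, 77 regions located within the gene bodies were counted as an alternative. Sequences are shown for the regions with the largest differences, each a contiguous stretch of GRCm38 written on the strand of its gene, with capitals for a TTGGC or GCCAA arm of the NFI site and for the K50 core TAATCC or GGATTA. Positions relative to a gene are distances from its first curated start site. Both Nfic regions and both Nfix regions were chosen after their values were seen, as the extremes of the gene bodies.
Nfia +340.5 kb, chr4:97922301-97922500, higher in ON-BC than OFF-BC: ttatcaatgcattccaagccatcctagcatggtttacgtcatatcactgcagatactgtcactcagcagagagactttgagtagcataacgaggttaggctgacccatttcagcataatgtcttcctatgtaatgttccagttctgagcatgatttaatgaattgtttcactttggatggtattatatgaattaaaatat
Nfib +20.1 kb, chr4:82485552-82485751, higher in ON-BC than OFF-BC: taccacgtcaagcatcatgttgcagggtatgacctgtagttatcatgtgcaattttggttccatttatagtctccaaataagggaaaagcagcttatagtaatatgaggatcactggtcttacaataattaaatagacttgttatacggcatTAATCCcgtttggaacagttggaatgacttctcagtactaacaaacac
Nfib +41.3 kb, chr4:82464397-82464596, open in all bipolar populations: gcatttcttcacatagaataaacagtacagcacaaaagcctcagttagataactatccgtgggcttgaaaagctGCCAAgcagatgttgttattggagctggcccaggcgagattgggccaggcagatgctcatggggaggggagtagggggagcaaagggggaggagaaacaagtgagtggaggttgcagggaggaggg
Nfic +15.5 kb, chr10:81411540-81411739, higher in bipolar cells: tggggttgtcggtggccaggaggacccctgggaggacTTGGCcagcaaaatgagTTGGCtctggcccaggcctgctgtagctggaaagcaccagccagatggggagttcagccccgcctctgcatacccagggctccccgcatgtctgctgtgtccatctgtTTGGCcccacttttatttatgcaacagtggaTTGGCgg
Nfic +20.4 kb, chr10:81406705-81406904, higher in photoreceptors: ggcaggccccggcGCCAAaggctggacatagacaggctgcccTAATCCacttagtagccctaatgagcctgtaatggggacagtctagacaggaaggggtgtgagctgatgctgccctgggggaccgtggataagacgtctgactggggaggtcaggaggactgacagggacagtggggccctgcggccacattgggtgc
Nfix +75.5 kb, chr8:84724783-84724982, higher in bipolar cells: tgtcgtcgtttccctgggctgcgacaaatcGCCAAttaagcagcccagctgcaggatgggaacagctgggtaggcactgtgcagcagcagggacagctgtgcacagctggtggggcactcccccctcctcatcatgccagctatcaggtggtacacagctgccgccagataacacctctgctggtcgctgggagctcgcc
Nfix +63.4 kb, chr8:84736857-84737056, higher in photoreceptors: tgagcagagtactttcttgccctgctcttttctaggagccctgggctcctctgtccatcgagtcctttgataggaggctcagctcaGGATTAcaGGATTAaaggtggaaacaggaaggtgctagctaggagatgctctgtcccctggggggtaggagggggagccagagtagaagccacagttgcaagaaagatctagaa
All 7 are intronic. The Nfib regions also lie in 2310067E19Rik, a non-coding transcript on the same strand, Nfix +75.5 kb lies in G430095P16Rik on the opposite strand, and Nfic +15.5 kb touches Gm16104 on the opposite strand. Both photoreceptor regions shown held K50 cores, 1 at Nfic +20.4 kb and 2 at Nfix +63.4 kb, as did Nfib +20.1 kb (1). Over all regions, 21.81% held a K50 core. Nfix +86.7 kb, not shown, was also higher in rods than in pan-BC (−5.10, SE 0.50) and held 0 K50 cores and 1 Q50 core. The bipolar region at Nfic +15.5 kb held 4 NFI arms, and Nfia +340.5 kb held none of the motifs searched.

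At Nfia and Nfib, most regions were more open in bipolar cells than in rods. Of the 26 Nfia regions, 19 were called, each of them higher in pan-BC, and of the 13 Nfib regions 10 were called higher and 0 lower (limma against a log2 fold change of 1, adjusted p below 0.05 over 108448 regions). Nfic had 0 higher and 2 lower, and Nfix 0 higher and 1 lower. Over the family, 29 of 54 were higher and 3 lower, where 40.3% of all regions were called higher in pan-BC and 11.2% higher in rods. The median log2 fold change was 3.52 for Nfia, 4.15 for Nfib, −1.17 for Nfic and −0.57 for Nfix, and 1.16 over all regions tested. With regions at 0 in 1 group set to their bound (3 counts in each library), the Nfia and Nfib medians were 3.41 and 3.76. By gene body, 38 of 77 regions were higher in pan-BC and 10 lower, with Nfic at 1 higher and 6 lower and Nfix at 1 higher and 4 lower.

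**Figure D3:**
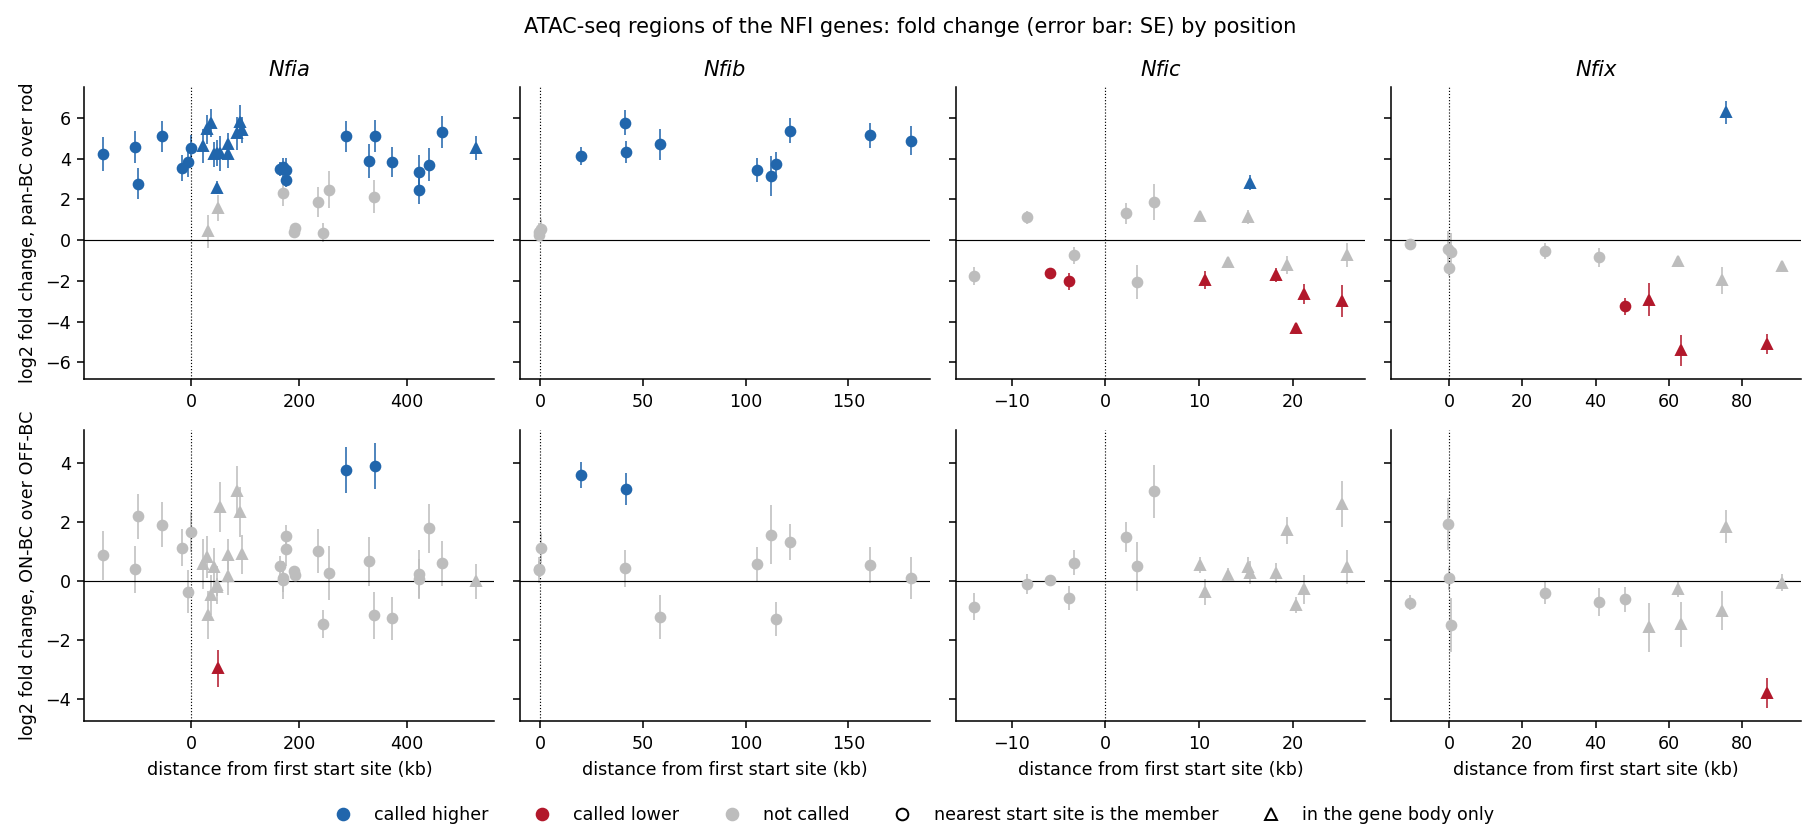
Log2 fold change of ATAC-seq signal in pan-BC over rods (upper row) and in ON-BC over OFF-BC (lower row) for the regions at each NFI gene, against distance from the first start site in kilobases, with error bars of 1 SE. Circles are regions nearest to the gene's start site and triangles regions in the gene body only, in blue where called higher, red where called lower and grey where not called. In the upper row most Nfia and Nfib points are blue and the Nfic and Nfix points fall on both sides of 0, and in the lower row most points are grey.

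Against blue cones, 19 of the 54 regions were called higher in pan-BC and 0 lower (12 for Nfia, 6 for Nfib, 1 for Nfic), where 28.8% of all regions were called higher in pan-BC and 7.13% higher in blue cones. Without pan-BC replicate 2, the deeper pan-BC library, 8 were called. By gene body 31 were higher and 4 lower. In rods against blue cones 1 of 54 regions was called, Nfib +115.0 kb, higher in blue cones, where 8.56% of all regions were called in that direction and 1.46% in the other. It measured 0 and 1.36 normalized counts in rods and 16.8 and 28.9 in blue cones, and Nfib RNA was also higher in blue cones.

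The Nfia start site was open in bipolar cells only to a modest height. The region over it (chr4:97581872-97582071, in an untranslated exon) measured 35.2 and 51.9 normalized counts in pan-BC. The ON-BC libraries held 50.8 and 67.4, and the OFF-BC libraries 14.8 and 21.4. Rods held 0 and 2.71, blue cones 6.48 and 2.89, and green cones 4.61 and 2.82. All bipolar libraries lay above all photoreceptor libraries, and pan-BC differed from rods (log2 fold change 4.51, SE 0.67, adjusted p = 0.000137, limma) and from blue cones (3.02, SE 0.67, adjusted p = 0.0132). Among called regions with Nfia as the nearest start site, the largest difference between pan-BC and rods was at +465.7 kb (chr4:98047510-98047709, intron), with a log2 fold change of 5.31 (SE 0.77). It measured 42.4 and 35.4 in pan-BC, 41.8 and 49.8 in ON-BC, and 37.7 and 23.4 in OFF-BC, whereas both rod libraries were at 0. Blue cones held 5.18 and 0.723 there and green cones 3.07 and 0. Larger called differences lay in the Nfia body nearer to another start site, the largest of them at +90.2 kb (5.80, SE 0.85, adjusted p = 6.79e-05, limma) and +36.8 kb (5.77, SE 0.69, adjusted p = 8.57e-06), where both rod libraries were at 0 as well. The Nfia body also held an exception shared by all cells, a region at +190.4 kb from the first start site and −5.3 kb from the second, with 348 to 633 normalized counts in all 12 libraries.

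At Nfib, the start site did not distinguish the classes. The region over its untranslated exon (chr4:82505260-82505459) measured 24.8 and 57.0 normalized counts in the pan-BC libraries. Rods held 25.7 and 25.1 and blue cones 10.4 and 28.9, and none of the 4 comparisons was called. The difference lay in the introns. Nfib +41.3 kb measured 92.0 and 131 in pan-BC, 92.6 and 133 in ON-BC and 88.9 and 75.9 in OFF-BC. Rods held only 3.12 and 0, blue cones 0 and 1.45, and green cones 6.15 and 8.45. Every bipolar library lay at least 75.9 and every photoreceptor library at most 8.45, and pan-BC against rods gave a log2 fold change of 5.77 (SE 0.63, adjusted p = 3.25e-06, limma).

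Nfic and Nfix loci carried regions of both kinds. Nfic +15.5 kb measured 120.02 and 83.8 normalized counts in pan-BC, and the other bipolar libraries lay between 71.1 and 109. Rods held 12.5 and 14.2, blue cones 15.5 and 10.1, and green cones 7.68 and 11.3. Pan-BC exceeded rods by a log2 fold change of 2.82 (SE 0.38, adjusted p = 0.000293, limma). The reverse held at Nfic +20.4 kb, where pan-BC libraries held 24.0 and 36.5, ON-BC 44.8 and 23.4, and OFF-BC 53.9 and 61.3. Rods held 606 and 618 there, blue cones 289 and 305, and green cones 332 and 261, and pan-BC fell below rods by a log2 fold change of −4.32 (SE 0.28, adjusted p = 2.08e-08). At Nfix +75.5 kb the pan-BC libraries held 64.8 and 91.8, the ON-BC libraries 125 and 148, and the OFF-BC libraries 31.0 and 44.8. Both rod libraries were at 0, and blue cones held 1.30 and 0. At Nfix +63.4 kb the order was turned around, with 1.60 and 2.85 in pan-BC against 135 and 131 in rods (−5.41, SE 0.76, adjusted p = 4.93e-05), and with blue cones at 25.9 and 27.5. ON-BC libraries held 0 and 8.78 there and OFF-BC libraries 5.39 and 10.7. Nfix RNA was 524 normalized counts or more in every bipolar library and 47.1 or less in every photoreceptor library, whereas the region over its first start site (chr8:84800164-84800363) held 20.5 to 21.6 in pan-BC and 52.2 to 59.6 in rods, a difference that was not called. Nfix has 5 curated start sites, and which of them these cells use was not tested.

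**Figure D4:**
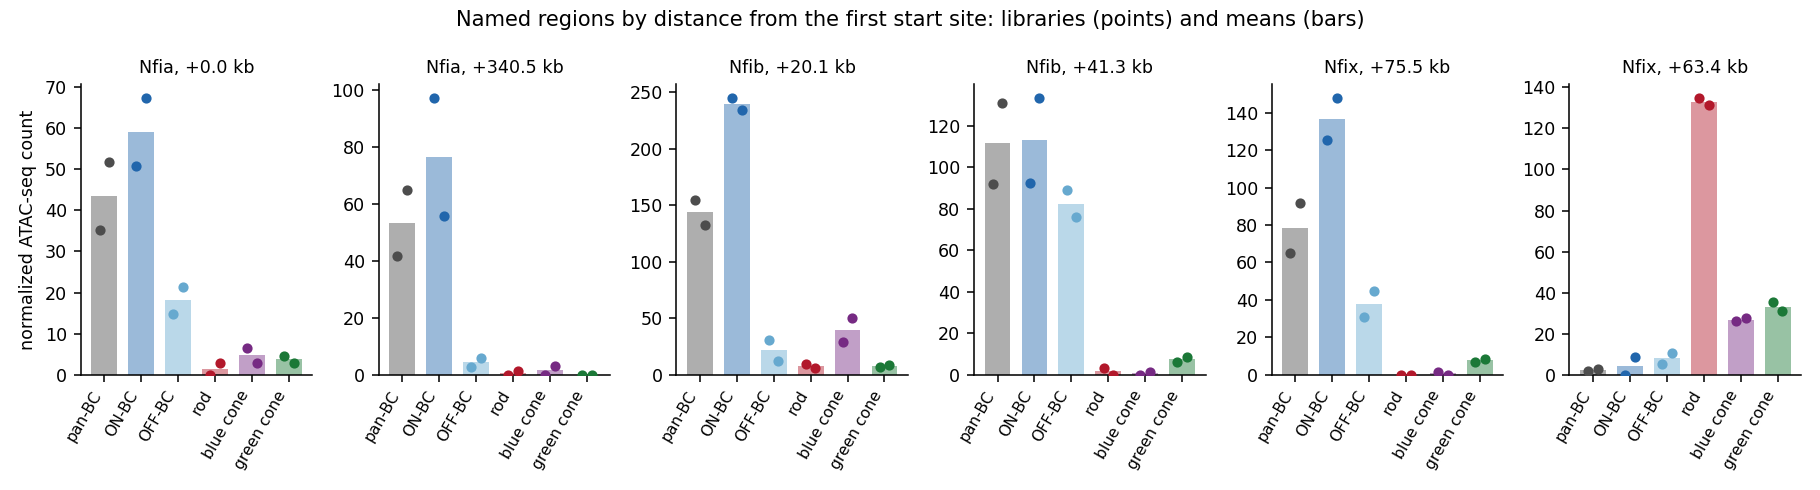
Normalized ATAC-seq counts (linear axis from 0) for 6 regions at Nfia, Nfib and Nfix, with points for the 2 libraries of each of the 6 populations and bars for their mean. Nfia +340.5 kb and Nfib +20.1 kb are highest in ON-BC, Nfib +41.3 kb is high in all bipolar populations, and Nfix +63.4 kb is highest in rods.

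Between ON-BC and OFF-BC, 4 of the 54 regions were called, all higher in ON-BC, where 4.58% of all regions were called higher in ON-BC and 2.80% higher in OFF-BC. They were 2 Nfia regions and 2 Nfib regions. Nfia +340.5 kb measured 97.1 and 55.6 in ON-BC against 2.69 and 5.84 in OFF-BC (log2 fold change 3.89, SE 0.78, adjusted p = 0.0181, limma), and Nfia +287.1 kb (chr4:97868941-97869140) measured 142 and 129 against 10.8 and 7.79 (3.74, SE 0.78, adjusted p = 0.0234). Nfia +287.1 kb also covers the start of Gm19417, a long non-coding RNA on the opposite strand. Nfib +20.1 kb measured 245 and 234 in ON-BC against 31.0 and 11.7 in OFF-BC (3.58, SE 0.43, adjusted p = 0.00082), and Nfib +42.0 kb, with 55.2 and 73.2 against 5.39 and 7.79, gave 3.11 (SE 0.55, adjusted p = 0.0146). Both Nfib regions were thus higher in ON-BC, whereas Nfib RNA was higher in OFF-BC. The count fell to 2 without ON-BC replicate 2 and to 1 without OFF-BC replicate 1. Over gene bodies 4 were higher in ON-BC and 2 lower. The latter were a region in the Nfia body 50.3 kb from the start (chr4:97632128-97632327), where ON-BC libraries held 2.99 and 11.7, OFF-BC libraries 75.4 and 38.9 and blue cones 80.3 and 101, and a region in the Nfix body 86.7 kb from the start, with 0 in both ON-BC libraries, 9.43 and 17.5 in OFF-BC, and 137 and 139 in rods.

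Peaks called by the authors in each library were also more numerous at Nfia and Nfib in bipolar cells. Within the Nfia gene body, 22 to 43 peaks (median 28.5) were called in the 6 bipolar libraries and 2 to 9 (median 5) in the 8 photoreceptor libraries. Within Nfib 7 to 18 peaks (median 10.5) were called in bipolar libraries and 1 to 5 (median 2) in photoreceptor libraries. Neither gene's ranges overlapped between the classes. Nfic had 5 to 6 peaks in bipolar and 3 to 8 in photoreceptor libraries, and Nfix 5 to 8 and 3 to 11, so the ranges overlapped for these genes. Bipolar libraries also had more peaks in all (51911 to 88514, against 28025 to 48631). Scaled to 10000 peaks of the library, Nfia held 3.40 to 5.02 in bipolar and 0.527 to 1.93 in photoreceptor libraries, and Nfib 1.35 to 2.03 and 0.278 to 1.03, still without overlap. Scaled Nfic numbers were 0.678 to 0.963 in bipolar and 0.956 to 1.95 in photoreceptor libraries (medians 0.876 and 1.47). Those of Nfix were 0.791 to 1.35 and 0.834 to 2.90 (medians 1.14 and 1.82). Both rod libraries had 11 Nfix peaks, above every bipolar library, whereas Nfix RNA was higher in bipolar cells.

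The DNA letters of the NFI site were then counted in the 200-base regions. The exact palindrome occurred in 30 of the 108448 regions tested (0.028%) and in 0 of the 54 regions at the members. A single arm occurred in 25 of the 54 (46.30%, against 33.86% of all regions), the K50 core in 2 (3.70%, against 21.81%), the Q50 core in 4 (7.41%, against 5.20%) and an E-box in 36 (66.67%, against 68.75%), and the motifs can overlap one another. Since the exact palindrome was so rare, 1 mismatch in its fixed bases was also allowed, a choice made after the data were seen. This form was found in 1.13% (exact 95% interval 1.03 to 1.24) of the 43735 regions called for pan-BC over rods, in 0.714% (0.573 to 0.880) of the 12179 called higher in rods, and in 0.638% (0.571 to 0.710) of those not called. The shares were 1.26% (1.14 to 1.40) for regions higher in pan-BC than in blue cones and 0.660% (0.492 to 0.866) for those higher in blue cones. They were 1.35% (1.05 to 1.71) for regions higher in ON-BC than in OFF-BC and 0.724% (0.454 to 1.09) for those higher in OFF-BC. The intervals cover counting error only, regions are not replicates, and a match is a description of the sequence, not of binding.

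**Figure D5:**
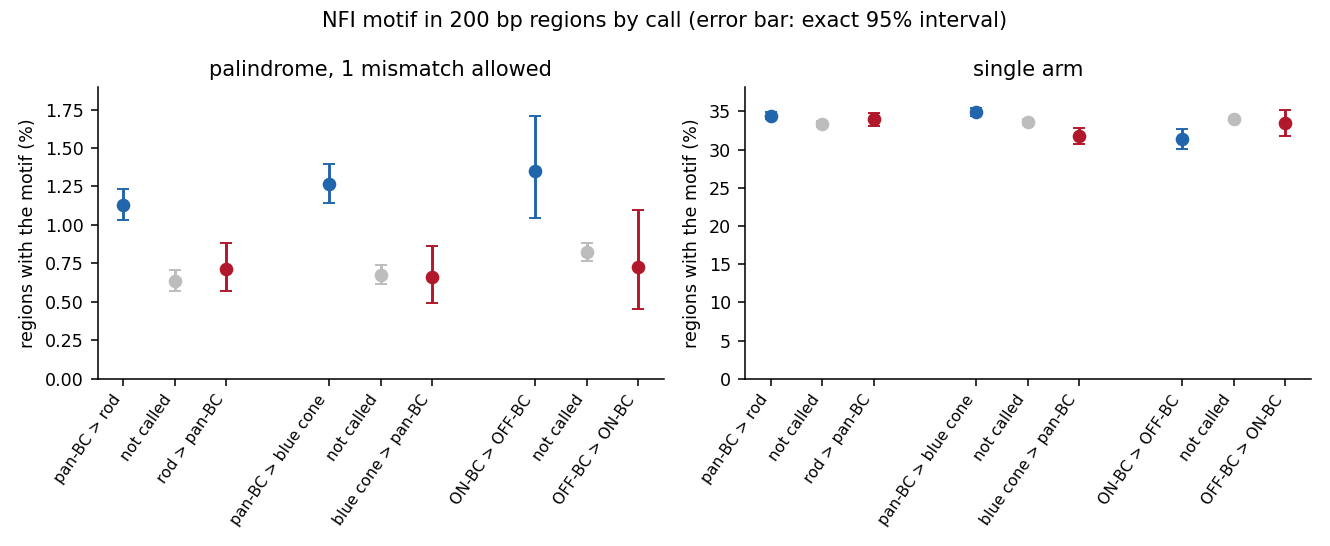
Percent of ATAC-seq regions (linear axes from 0) that hold the NFI palindrome with at most 1 mismatch (left) and the single arm (right), by call in 3 comparisons, with exact 95% binomial intervals. On the left, regions called for pan-BC over rods stand at 1.13% and those called for rods at 0.714%, and on the right the shares lie between 31.3% and 34.8%.

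Base composition differed between these groups of regions. Median GC content was 47.5% in regions higher in pan-BC, 50.5% in those higher in rods and 52.5% in those not called. Within regions of 50% to 55% GC the share with the near-palindrome was 1.41%, 0.727% and 0.736%, respectively. At 45% to 50% GC it was 1.12%, 0.64% and 0.681%. The shares lay closer together at 35% to 40% GC (0.738%, 0.709% and 0.658%) and at 65% to 70% GC (0.59%, 0.653% and 0.496%). The single arm was in 34.4% of regions higher in pan-BC, 33.9% of those higher in rods and 33.3% of those not called, and it was in 31.3% of regions higher in ON-BC and 33.4% of those higher in OFF-BC.

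Genes tied to NFI in other neural tissue were mixed in these cells. Of 15 genes described as NFI targets there, 12 were tested, 6 were called higher in pan-BC against rods and 1 lower (median log2 fold change 1.25, against 0.21 over all genes), and 4 were higher and 3 lower than in blue cones (0.85, against 0.16). The list was not split by whether NFI raises or lowers a gene, so these counts and medians carry no expected direction. Apcdd1, a WNT inhibitor, averaged 396 normalized counts in pan-BC, 148 in OFF-BC, 2.09 in rods and 9.24 in blue cones. Hes1, a Notch effector, averaged 26.0 in pan-BC against 4.46 (rods) and 3.51 (blue cones), and Cntn2, an axonal adhesion molecule, 17.5, 0.647 and 0. Mmd2 went the other way, at 1230.2 in pan-BC against 3340.3 (rods) and 4299 (blue cones). Ezh2, a histone methyltransferase, was called higher in pan-BC than in both photoreceptor populations and was the 1 gene of this list called higher in ON-BC (979 ± 103, SD, n = 3) than in OFF-BC (187 ± 32.0), with a log2 fold change of 2.39 (SE 0.15, adjusted p = 4.53e-06, limma). Fabp7, a fatty acid binding protein of radial glia, was called higher in OFF-BC than ON-BC, but its OFF-BC libraries ranged widely (mean 87.1, SD 109) and blue cones held most (4324). Among the glial targets, Gfap, Aqp4 and S100b averaged 25.9, 37.1 and 13.4 in pan-BC and were not called in any comparison. Fabp7, by contrast, was called in every comparison. Tnc, also on this list, was called higher in pan-BC against rods (log2 fold change 2.54, SE 0.41, adjusted p = 0.00237, limma). Against blue cones Tnc was called lower, both for pan-BC (−6.34, adjusted p = 6.09e-09) and for rods (−8.89, adjusted p = 6.32e-11). Its ON-BC to OFF-BC difference (−0.85) was not called.

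Of 9 factors known to act with or upstream of NFI, 7 were tested, 2 were called higher in pan-BC against rods and 1 lower (median 0.69), and 2 higher and 2 lower than in blue cones (median 0.61). Sox9, the glial partner of NFIA, averaged 1400.4 normalized counts in OFF-BC, 330.03 in pan-BC and 25.1 in ON-BC, and ON-BC against OFF-BC gave −5.82 (SE 0.32, adjusted p = 2.33e-08, limma). Zbtb20, a zinc finger factor of astrocytes and hippocampal neurons, averaged 3941 in pan-BC against 564 (rods) and 369.9 (blue cones). Atf3, a stress-response factor, was lower in pan-BC, with a mean of 55.3 against 344 (rods) and 523 (blue cones). Olig2 was at 0 in every library.

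Regulators of bipolar fate gave a frame for the size of the NFI differences. Of 13 such genes, all tested, 10 were called higher in pan-BC against rods and 1 lower (median 6.53), and 11 higher and 1 lower than in blue cones (median 4.13, or 3.78 with a gene at 0 set to its bound). Neurod4, a basic helix-loop-helix factor, averaged 17832 normalized counts in pan-BC against 175 for rods. Between ON-BC and OFF-BC, 3 were called higher (Prdm8, Bhlhe23 and Isl1) and 3 lower (Bhlhe22, Irx5 and Irx6). Irx6, an OFF bipolar factor, averaged 134 in ON-BC and 6769 in OFF-BC. Among those lower in ON-BC than OFF-BC, the Nfib difference of −1.70 was smaller than the differences of Bhlhe22 (−4.25), Irx5 (−6.48) and Irx6 (−5.67). Prdm1, which restrains bipolar fate, was lower in pan-BC, at 23.2 against 768 (rods) and 1995 (blue cones). Vsx1 and Lhx4 were called higher in pan-BC than in both. The genes of these lists that were called in the ON-BC to OFF-BC contrast were also called, in the same direction, when OFF-BC replicate 3 was left out, a choice made after the data were seen. The difference was then 2.49 for Ezh2, −3.12 for Fabp7 and −5.91 for Sox9, and Slc1a3, a glutamate transporter of glia on the target list, was called as well (−2.36, SE 0.33, adjusted p = 0.0088, limma, against −1.98 and adjusted p = 0.0746 with all libraries).

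Markers of other cell types moved with some of these values. Müller glia, in which NFI genes are also expressed, were followed with 10 markers. Their summed level was 7221 to 8499.6 in pan-BC, 6299.5 to 7489 in ON-BC and 9442 to 13968 in OFF-BC. Rods held 1952 to 3186 and blue cones 12771 to 15830.5. Among the bipolar classes the sum was highest in OFF-BC, where Nfib was also highest. Most of it was Clu, which averaged 7941 in OFF-BC and 13088 in blue cones, and Sox9 is also in this list. Rlbp1, a defining marker of Müller glia, averaged 132 in OFF-BC, 176 in ON-BC and 222 in pan-BC, with rods at 268 and blue cones at 209.9. Glul, the glial glutamine synthetase, averaged 1107 in OFF-BC, 985 in pan-BC and 728 in ON-BC, with rods at 397 and blue cones at 309, which is the order of Nfib in the bipolar classes. Slc1a3 averaged 210.2 in OFF-BC, 100.4 in pan-BC and 50.6 in ON-BC, with rods at 201 and blue cones at 103. Of the 10 markers, Sox9 and Clu were called higher in pan-BC against rods, Glul and Sox9 against blue cones, and Sox9 was lower in ON-BC than OFF-BC. Over all 10 the median log2 fold change of ON-BC against OFF-BC was 0.41, the opposite direction to Nfib. Aqp4, not called, averaged 51.5 in ON-BC and 20.3 in OFF-BC. The part of Müller glia RNA in the Nfib values was not tested. Astrocyte markers summed to at most 56.4 in any library, with Pax2 at 0 in all but 1 library. Amacrine markers summed to 564 to 612 in pan-BC, 328 to 485 in ON-BC and 923 to 1113 in OFF-BC, the order of Nfib, and to 1371 to 2448 in photoreceptors, where most of the sum was Slc6a9. The part of amacrine RNA in the ON-BC to OFF-BC difference of Nfib was not tested. Rod markers summed to 33444 to 42037 in pan-BC, 20348 to 25582 in ON-BC and 3618 to 17906 in OFF-BC, and cone markers to 5120 to 5912 in ON-BC, 44754 to 70999 in pan-BC and 29991, 34744 and 104776 in OFF-BC. The pan-BC libraries thus lay above 2 of the 3 OFF-BC libraries, and the part of cone RNA in these results was not tested. Horizontal, ganglion, endothelial and microglial markers summed to at most 339.7 in any library.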

How the data were processed

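Retinal cells were sorted by FACS. RNA-seq reads were mapped by the authors with STAR 2.7.0d and counted per RefSeq gene with HTSeq 1.9, and ATAC-seq reads were mapped to GRCm38 (mm10) with Bowtie2 2.2.5, filtered with SAMtools 1.3 and Picard 2.19.0, and called for peaks per library with MACS2 2.1.1 (versions per the labels). The deposited tables hold these counts divided by 1 size factor per library, so the values are a normalized signal, and 100.0% of values above 0 were whole multiples of 1 read within 0.01 read. The peak files deposited by the authors give a fold enrichment (ratio) over background, −log10 p and −log10 q values and the signal for each peak, of which only the positions and the −log10 q were used here.

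The members, the gene lists and the markers were chosen with earlier results of these data known. Genes and regions with low counts were removed by edgeR's filter by group, and log2(normalized count + 1) was fitted with limma 3.58.1 (R 4.3.3) in 1 model per table over all 15 RNA or 12 ATAC libraries, with no covariate. Contrasts were tested against a log2 fold change of 1 with Benjamini-Hochberg adjustment over all genes or regions tested, at an adjusted p of 0.05. The fits were tested on simulated data. Reads without molecular identifiers are not independent molecules. The exact intervals on motif shares count regions, not reads, and cover counting error only. The mice behind same-numbered ON-BC and OFF-BC libraries were of equal age, and no source used here says whether the libraries share mice, a litter or a sort. Where replicates are not stated to be separate animals, p-values measure only the spread between these libraries.

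Genes were named mainly by rule: the 4 members, the 5 genes most correlated with each, and list genes called in pan-BC against both photoreceptor populations in 1 direction or in ON-BC against OFF-BC. Some genes named as context fell outside this rule, among them Gfap, Aqp4, S100b, Tnc, Slc1a3, Olig2 and single cell type markers. Some genes of the lists are counted but not reported here by name. Regions named were those at the first start site, the called region with the largest difference of pan-BC over rods and the region with the largest ON-BC to OFF-BC difference of each member, with the extremes of each gene body added after the data were seen. Alternatives changed the pseudocount (0.5, 8), filter, scaling (TMM, library total), test (edgeR 4.0.16, DESeq2 1.42.0 on the recovered reads), libraries in the fit, replicates, peak threshold and region assignment.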

Additional observations from a re-analysis of the deposited data

How the results depend on the processing

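The 3 members called in pan-BC against rods and against blue cones were 3 under all alternatives except a test against a log2 fold change of 0, where 4 passed, and leaving out any 1 library gave 3. In ON-BC against OFF-BC, 1 member was called, 4 against a fold change of 0, and 0 to 1 without single libraries. In rods against blue cones 1 was called, and 2 against 0. The Nfia difference between rods and blue cones, which was not called, changed sign without blue cone replicate 3 (−0.0598) and ranged up to 0.2658 without the other libraries in turn. For ATAC-seq regions, the 32 calls in pan-BC against rods stayed within 1.5 times under each of the 16 alternatives (25 to 31 without single libraries). Pan-BC against blue cones gave 19 calls, 32 against 0, 35 by gene body, and 8 to 18 without single libraries. ON-BC against OFF-BC gave 4 calls, 2 with a pseudocount of 0.5, 10 against 0, and 1 to 4 without single libraries. Rods against blue cones gave 1 call, 2 with a pseudocount of 0.5, 0 with 8, 4 with TMM scaling, 4 with scaling to the library total, 13 against 0, 0 with the libraries of the 2 groups alone, 6 with edgeR, 2 with DESeq2, 3 by gene body, and 1 to 2 without single libraries. Where a left-out library left 1 sample in a group, that sample was assumed to vary like the other groups. Peaks at the members fell from 482 to 271 at a −log10 q of at least 10. NFI motif shares were, for the palindrome, the single arm and the form with 1 mismatch, 0.039%, 34.423% and 1.132% in regions called for pan-BC over rods, 0.008%, 33.927% and 0.714% in those higher in rods, 0%, 31.315% and 1.348% in those higher in ON-BC, and 0.033%, 33.410% and 0.724% in those higher in OFF-BC. Fewer libraries, a lower tested fold and a looser motif follow from how these alternatives are built, and the cause of the other differences was not tested.

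The mice behind same-numbered ON-BC and OFF-BC libraries were of equal age. Deviations of these libraries from their group means correlated at r of −0.0763, 0.222 and −0.0649 in RNA and 0.000174 in ATAC-seq. Such deviations sum to 0 within a population, so with so few libraries these r cannot decide whether the libraries are pairs. The main fit did not take the replicate numbers as pairs. With the replicate number as a block on the ON-BC and OFF-BC RNA libraries alone, 0 members were called (Nfib adjusted p = 0.0542, limma), and with the block over all libraries 1 was. The block over all libraries changed no other count. Scaling to the library total shifted the median of all genes by 0.347 and 0.281 (log2) in pan-BC against rods and blue cones, and TMM scaling shifted the ATAC-seq medians by −0.203, −0.285 and −0.216 in pan-BC against rods, pan-BC against blue cones and ON-BC against OFF-BC. With 2 ATAC-seq libraries per population, and rod values of 0 to 5 normalized counts in many Nfia and Nfib regions, fold changes there are limited by counting depth.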
